A study of Mus musculus with 6 samples.

Results

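The genes that flank Gata2 on mouse chromosome 6 were followed in the embryonic hindbrain of Gata2 conditional mutants. The members are 60 listed genes, of 19054 genes with a probe named on the array, and all probes whose platform annotation carries one of these symbols were taken, 139 in all. In the gene table of assembly GRCm38.p6 all 60 lie on chromosome 6, 37 on the side of lower coordinates and 23 on the side of higher coordinates, and the farthest starts 6.41 Mb from the start of Gata2. Tissue was rhombomere 1, the most anterior hindbrain segment, of ICR (CD-1) mouse embryos at E12.5. The gata2cko pools were En1-cre, Gata2 flox/flox embryos, which carry 2 floxed alleles. The control pools, titled wildtype, were En1-cre, Gata2 flox/+ embryos per the series' design text, which carry 1 floxed allele, so both groups have the Cre driver and at least 1 floxed allele. Each group had 3 pools, called biological replicates by the submitters, each of 6 dissected pieces and hybridised to an Illumina Mouse WG-6 BeadChip. En1-cre acts in the midbrain and rhombomere 1, and a pool mixes embryos and all cell types of the segment. The groups differ in the number of floxed alleles and so also in the copies of chromosome 6 that came with them, and loss of Gata2 and the dose of that linked DNA cannot be told apart in this design.

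Gata2 is a DNA-binding regulator that directs newborn neurons toward particular transmitter fates. Genes next to a targeted locus are inherited with it, since recombination separates close neighbours rarely, so embryos chosen for both copies of a modified allele tend to carry both copies of the DNA around it. The flanking genes have unrelated jobs: they include enzymes of amino sugar synthesis, parts of the protein translocon and coatomer of the secretory pathway, mitochondrial proteins, splicing factors and matrix proteases. A BeadChip probe reads a short stretch of a transcript, so different probes of a gene can read different transcripts or parts of them.

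Between 19388 and 20407 of 45276 probes were above background (detection p-value under 0.05) on an array, and arrays correlated across probes at 0.988 to 0.991 between groups and 0.988 to 0.993 inside them. A probe was kept when it was above background on at least 3 of 6 arrays, which left 19936 probes. All values below are log2 intensities after background correction and quantile normalization, all differences are gata2cko minus control on that log2 scale with limma's standard error, and n is 3 pools per group. En1, at 11.33 in gata2cko and 11.59 in control pools, and En2, at 12.27 in gata2cko and 12.45 in control pools, were bright as markers of midbrain and rhombomere 1, while Pax2 and Pax5 had no kept probe. The other measured markers of this list were Pax8 at -0.51 ± 0.20, Gbx2 at 0.67 ± 0.36, Fgf8 at 0.41 ± 0.16 and Fgf17 at 0.43 ± 0.19. Of the 6 measured, 3 (Pax8, Fgf8 and Fgf17) had an unadjusted limma p under 0.05 and 0 passed after adjustment. Otx1 and Otx2, which mark midbrain and forebrain, were also above background in every pool. Otx1 was about as bright as En1, at 11.29 in gata2cko and 11.50 in control pools, and Otx2 was at 8.33 and 8.32. Of the Hox genes of more caudal hindbrain, Hoxb1, Hoxa3 and Hoxb3 were not kept and Hoxb2 was near background. Hoxa2 was uneven between pools, at 4.56, 5.70 and 5.95 in gata2cko pools, against 4.85, 5.50 and 4.84 in control pools. It was above background in 2 of 3 gata2cko and 1 of 3 control pools.

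The only probe named for Gata2, the targeted gene, read 10.78, 10.79 and 11.09 in the gata2cko pools, against 10.71, 10.41 and 10.48 in the control pools. The groups did not overlap and the gata2cko values were the higher ones. The difference was 0.36 ± 0.12 (SE) and did not pass over all kept probes (limma adjusted p = 0.418, Benjamini-Hochberg; unadjusted p = 0.00911). Whether this probe reads floxed or remaining sequence is not known here, so it checks the labels neither way.

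Among the 60 flanking genes, Gfpt1, Mxd1 and Adamts9 were lower in the gata2cko pools and no flanking gene was higher, taking as passed a limma p of under 0.05 after Benjamini-Hochberg adjustment over all 19936 kept probes. Of the 139 member probes 95 were kept, covering 55 genes, and 3 of these 95 passed, all lower, where the share over all kept probes was 0.145% in either direction and 0.125% for probes lower in gata2cko. The members were chosen with earlier results of these data known, so this count is no test of position. Each of the 3 genes was called through 1 probe. Probe sequences were not used, so a sequence difference under a probe was not tested. Fewer cells expressing a gene, less RNA per cell and such a difference cannot be told apart in these pools. The probes of Mxd1 and Adamts9 met the detection filter through the control pools alone, so the filter favoured a fall in them. Without a detection filter both still passed (limma adjusted p = 8.81e-05 and 0.000538). The 3 probes passed in each of the 17 alternatives. One of these, the threshold of 0.1, is the same fit, so passing there was given. Without gata2cko pool 1R, 5 member probes passed, against 103 over all probes, where 29 passed with all 6 arrays; leaving out control pool 5R, 6R or 7R gave 14, 17 and 19 over all probes, with the 3 member probes among them each time.

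The promoters of these 3 genes, 250 bases before to 50 after the annotated start, are shown because the genes were lower in the same pools; sequences are from RefSeq on build GRCm38.p6, and 55 of the 60 flanking genes have an entry. Capitals mark the CCAAT box, read on both strands:
Gfpt1 promoter, chr6:87042596-87042895, plus strand: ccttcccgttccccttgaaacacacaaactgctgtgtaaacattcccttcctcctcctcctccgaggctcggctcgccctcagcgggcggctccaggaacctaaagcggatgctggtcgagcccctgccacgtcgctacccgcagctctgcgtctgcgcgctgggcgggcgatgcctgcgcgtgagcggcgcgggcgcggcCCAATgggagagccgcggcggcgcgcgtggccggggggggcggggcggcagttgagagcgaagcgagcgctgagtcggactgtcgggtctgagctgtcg
Mxd1 promoter, chr6:86669110-86669409, minus strand: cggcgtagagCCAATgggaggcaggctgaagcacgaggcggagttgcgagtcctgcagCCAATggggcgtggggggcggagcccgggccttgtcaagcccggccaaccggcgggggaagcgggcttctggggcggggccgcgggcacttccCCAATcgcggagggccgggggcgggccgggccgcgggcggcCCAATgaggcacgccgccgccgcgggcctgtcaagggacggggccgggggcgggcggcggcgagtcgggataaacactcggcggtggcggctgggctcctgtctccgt
Adamts9 promoter, chr6:92943485-92943784, minus strand: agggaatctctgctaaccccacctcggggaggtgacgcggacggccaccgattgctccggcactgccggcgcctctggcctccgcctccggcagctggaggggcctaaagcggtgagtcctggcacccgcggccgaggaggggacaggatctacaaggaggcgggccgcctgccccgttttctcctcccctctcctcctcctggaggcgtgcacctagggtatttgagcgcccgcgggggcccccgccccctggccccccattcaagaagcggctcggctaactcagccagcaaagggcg
CCAAT occurs 1 time in the Gfpt1 window, 4 times in that of Mxd1 and 0 times in that of Adamts9, and 37.4% of the 32851 promoters in the table hold it. The GATA words AGATAA or AGATAG, and TGATAA or TGATAG, read on both strands and able to share an end letter with CCAAT, occur 0 times in these 3 windows, and 29.8% of all promoters hold at least 1 of them. Among the 74 promoter windows of the flanking genes, 20.3% hold a GATA word and 36.5% hold CCAAT. These counts describe letters in a short window and nothing about binding.

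Gfpt1, the enzyme that opens the hexosamine pathway by making glucosamine 6-phosphate from fructose 6-phosphate and glutamine, had the smallest p-value of all kept probes and the 7th lowest difference. Its start lies 1.15 Mb from that of Gata2, on the side of lower coordinates. The deposited intensities of probe ILMN_2437470 were 202, 232 and 205 in the gata2cko pools, against 1048, 1105 and 839 in the control pools. On the normalized log2 scale these became 7.20, 7.42 and 7.30 in gata2cko pools, against 9.98, 10.01 and 9.82 in control pools. The groups are far apart compared with the spread inside them, and the probe stayed above background in all 6 pools. The signal of this probe fell by 2.63 ± 0.11 (SE), with a 95% interval of -2.87 to -2.38, which is 6.19-fold lower in gata2cko (limma adjusted p = 7.23e-08).

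The array holds 5 probes for Gfpt1, and the other 4 were close to background in both groups. Of these, ILMN_2553736 was kept, with 5.03, 4.64 and 4.95 in gata2cko pools, against 5.02, 4.79 and 4.81 in control pools. These values overlap, and the difference was -0.00 with a 95% interval of -0.35 to 0.34. Within each pool the bright probe exceeded this dim one by 2.17, 2.78 and 2.36 in gata2cko pools, against 4.96, 5.21 and 5.01 in control pools. The gap between the probes thus differed by -2.62 between groups, with an exact two-sided permutation p of 0.1, the smallest that 3 against 3 pools can give. The dim probe lay near background with little room to fall, so this gap mostly restates the difference of the bright probe. ILMN_2608226, which is annotated with the RefSeq transcript of Gfpt1, was above background in 0 of 6 pools, at 4.32 in gata2cko and 4.29 in control pools. The called probe carries the Gfpt1 symbol but no transcript accession in the platform annotation, so which part of the gene it reads is not known here.

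Mxd1, a repressor that pairs with MAX and opposes MYC at shared target sites, starts 1.55 Mb from Gata2 on the same side as Gfpt1. Its probe ILMN_1232668 had deposited intensities of 73.0, 75.2 and 72.7 in the gata2cko pools, against 134, 136 and 121 in the control pools. The normalized values were 4.62, 4.72 and 4.85 in gata2cko pools, against 6.35, 6.42 and 6.35 in control pools. It was above background in every control pool and in 0 of 3 gata2cko pools. The signal of this probe was therefore at least 2.65-fold lower in gata2cko, setting each gata2cko value to at least the dimmest detected signal of that array. The fitted difference was -1.64 ± 0.14 (limma adjusted p = 6.39e-05). The lower bound of 2.65-fold leaves out sampling error and rests on the background correction. The other 2 Mxd1 probes were above background in 0 of 6 pools and so say nothing about the gene.

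Adamts9, a secreted metalloprotease that cleaves versican and other matrix proteoglycans, starts 4.58 Mb from Gata2 on the other side. Probe ILMN_1257724 had deposited intensities of 61.1, 56.7 and 59.8 in the gata2cko pools, against 99.9, 99.5 and 103 in the control pools. Normalized, these were 4.36, 4.30 and 4.43 in gata2cko pools, against 5.57, 5.63 and 5.95 in control pools. The probe was above background in 0 of 3 gata2cko pools and dim in the control pools too. The fall was at least 1.68-fold by the same bound, and the fitted difference was -1.35 ± 0.16 (limma adjusted p = 0.00142). A second probe, annotated with the RefSeq transcript of Adamts9, was above background in 0 of 6 pools, with means of 4.87 in gata2cko and 4.82 in control pools.

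Without background correction the 3 differences were smaller, at -2.31 for Gfpt1, -0.84 for Mxd1 and -0.78 for Adamts9. With an offset of 50 Mxd1 was at -0.95 and Adamts9 at -0.67, and in the authors' normalized table they were at -0.81 and -0.77. Genes of serotonergic neurons moved in the same pools: of 9 listed, 8 were measured and 6 of these fell (Tph2, Slc6a4, Gchfr, Ddc, Gch1 and Slc17a8), and the summed normalized level of the 8 on the linear scale lay between 798 and 899 in gata2cko pools, against 3290 to 4243 in control pools. The transmitter enzyme Tph2 and the transporter Slc6a4 were above background in 2 and 1 of 3 gata2cko pools. Whether the lower level of these transcripts has a part in the falls of Gfpt1, Mxd1 and Adamts9 was not tested. Blood genes, 5 of 8 measured, summed to 52768 to 60937 in gata2cko pools, against 49668 to 56105 in control pools, and 0 of 5 passed. The brightest, Hba-a1 and Hbb-y, dominate this sum, at 0.08 ± 0.10 and 0.03 ± 0.09. Of the 5 differences 0 were negative, with a median of 0.27, and Hbb-bh1 at 0.53 ± 0.14 and Hba-x at 0.41 ± 0.13 were higher without overlap. Mesenchymal genes, 3 of 8 measured, summed to 215 to 232 in gata2cko pools, against 219 to 226 in control pools. Of 6 measured endothelial and mural genes 1 passed, Acta2 at 1.33 ± 0.16 (limma adjusted p = 0.00212). Of the 6 differences 3 were negative, among them Rgs5 at -0.35 ± 0.23 and Cldn5 at -0.24 ± 0.13, and the median was 0.03. Of 4 measured microglial genes 0 passed.

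**Figure D1:**
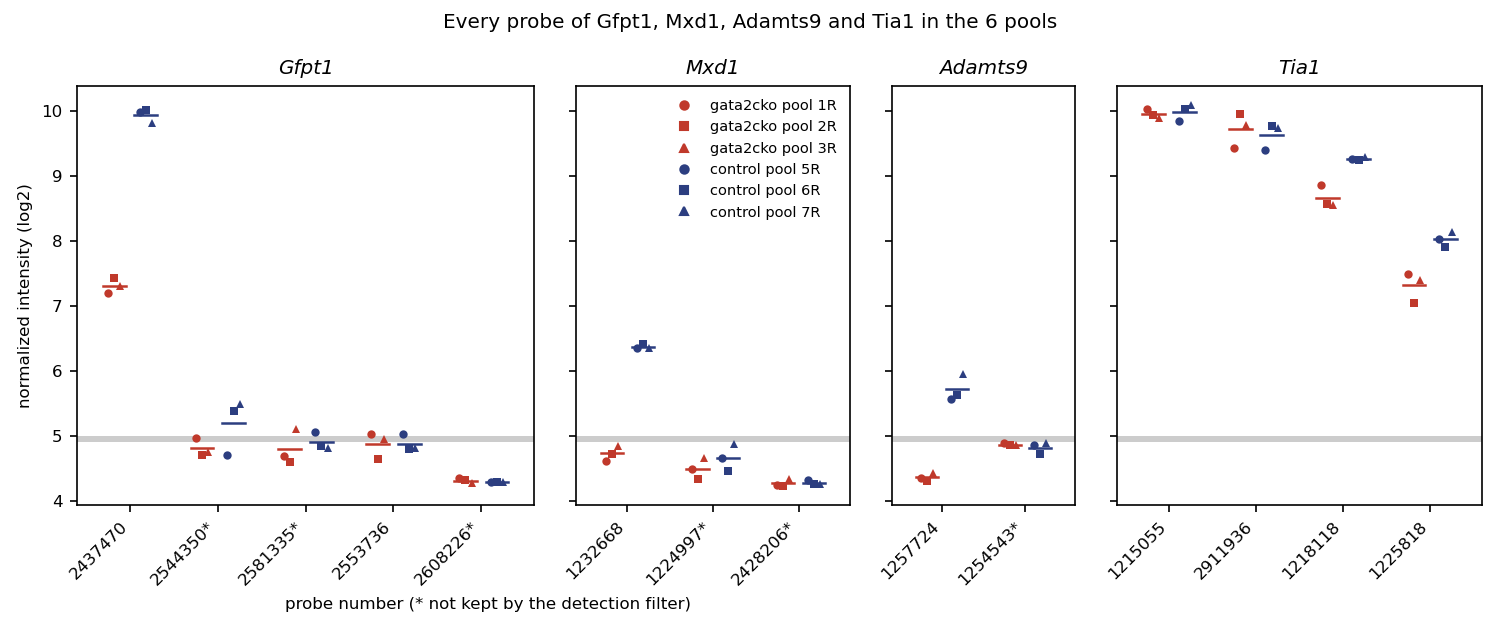
Normalized log2 intensity (vertical axis) of every probe of Gfpt1, Mxd1, Adamts9 and Tia1 (horizontal axis, probe numbers), with gata2cko pools in red left of control pools in blue, a symbol per pool and a line at the group mean; the grey band spans the lowest signals above background on the 6 arrays. One bright Gfpt1 probe drops to 7.31 on average in gata2cko, against 9.94 in control pools, while the other Gfpt1 probes stay near the grey band, and 2 of 4 Tia1 probes separate the groups.

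Tia1, an RNA-binding protein of stress granules and alternative splicing, was singled out after its values were seen, because its 4 kept probes split into pairs. It starts 1.79 Mb from Gata2 on the side of Gfpt1 and Mxd1. ILMN_1218118 read 8.86, 8.56 and 8.55 in gata2cko pools, against 9.26, 9.24 and 9.29 in control pools. ILMN_1225818 read 7.49, 7.05 and 7.40 in gata2cko pools, against 8.03, 7.90 and 8.13 in control pools. In both probes every gata2cko value lay below every control value. Their differences were -0.60 ± 0.11 (limma adjusted p = 0.0769) and -0.71 ± 0.14 (limma adjusted p = 0.0975), so neither passed at 0.05.

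The other Tia1 probes were brighter and did not share this difference. ILMN_1215055 read 10.03, 9.93 and 9.89 in gata2cko pools, against 9.84, 10.03 and 10.09 in control pools. ILMN_2911936 read 9.43, 9.94 and 9.78 in gata2cko pools, against 9.39, 9.77 and 9.74 in control pools. Both overlap between groups, with differences of -0.03 ± 0.10 and 0.09 ± 0.14. The pair that did not differ is annotated with the RefSeq transcript of Tia1, and the pair that was lower with GenBank cDNA entries. The gap of the lower probes to the brightest one differed between groups by -0.57 and -0.67, each with an exact two-sided permutation p of 0.1, the smallest possible. At an adjusted p under 0.1, 5 member probes were called, the 3 above and these 2, beside 0.216% of all kept probes. The same 5 were called at 0.05 with array weights and without gata2cko pool 1R, where the adjusted p of the lower Tia1 probes was 0.0114 and 0.0285.

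The listed genes closest to Gata2 did not pass. On the side of lower coordinates these are Rpn1, a subunit of the oligosaccharyltransferase, Rab7, the GTPase of late endosomes, and Copg1, a coatomer subunit. Rpn1 read 4.99, 4.89 and 5.09 in gata2cko pools, against 5.33, 5.03 and 4.89 in control pools, close to background. Rab7 read 10.14, 10.50 and 10.61 in gata2cko pools, against 10.54, 10.41 and 10.44 in control pools. Both overlap between groups, at -0.09 ± 0.16 and -0.05 ± 0.12. Copg1 read 9.38, 9.43 and 9.41 in gata2cko pools, against 9.48, 9.76 and 9.48 in control pools. The Copg1 groups did not overlap, at -0.17 ± 0.11 (limma adjusted p = 0.704), and its 4 kept probes gave -0.25 to -0.01.

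On the side of higher coordinates the nearest are Eefsec, the elongation factor for selenocysteine, Ruvbl1, an ATPase of chromatin remodelling complexes, and Sec61a1, the pore of the protein translocon. Eefsec read 5.17, 5.19 and 5.46 in gata2cko pools, against 4.99, 5.11 and 4.96 in control pools. Ruvbl1 read 10.23, 10.16 and 10.10 in gata2cko pools, against 9.97, 9.97 and 10.18 in control pools. Ruvbl1 overlapped between groups and Eefsec did not, at differences of 0.12 ± 0.10 and 0.25 ± 0.15. Sec61a1 read 8.54, 8.49 and 8.54 in gata2cko pools, against 8.35, 8.41 and 8.46 in control pools, a small separation of 0.12 ± 0.11 (limma adjusted p = 0.789). None of the 6 kept probes of these 3 genes reached an unadjusted p under 0.05.

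**Figure D2:**
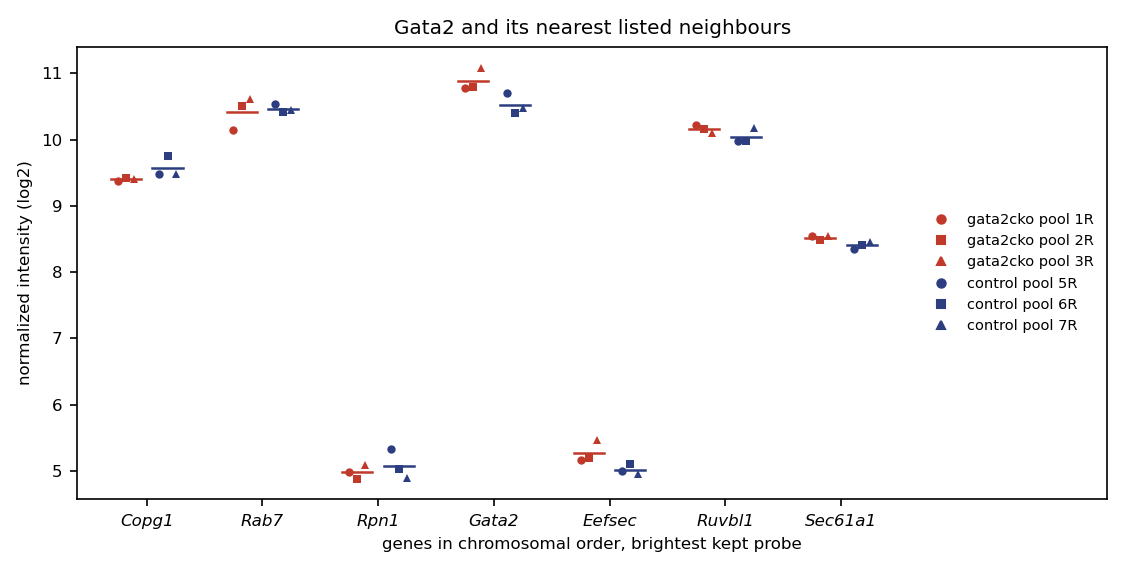
Normalized log2 intensity (vertical axis) of Gata2 and the 3 nearest listed genes on each side, in chromosomal order (horizontal axis), with gata2cko pools in red left of control pools in blue, a symbol per pool and a line at the mean. Gata2 is higher in gata2cko pools by 0.36, and the means of its neighbours differ by at most 0.25.

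The 10 other members with the smallest p-values of their brightest probes did not pass either. Fbln2, the matrix protein fibulin-2, read 6.42, 6.49 and 6.56 in gata2cko pools, against 6.02, 5.62 and 6.24 in control pools. Anxa4, a calcium-dependent membrane-binding annexin, read 5.33, 5.08 and 5.29 in gata2cko pools, against 4.91, 4.96 and 4.83 in control pools, where it was above background in 0 of 3. In both genes the gata2cko values were the higher ones with no overlap, at 0.53 ± 0.16 (limma adjusted p = 0.381) and 0.33 ± 0.15 (limma adjusted p = 0.548). Rtkn read 6.68, 6.94 and 6.87 in gata2cko pools, against 6.54, 6.45 and 6.68 in control pools. Exoc6b, a subunit of the exocyst, read 10.01, 9.79 and 9.70 in gata2cko pools, against 10.12, 10.07 and 9.96 in control pools. The groups overlapped in Rtkn and Exoc6b, whose differences of 0.27 ± 0.14 and -0.22 ± 0.11 point in opposite directions. Sfxn5, a mitochondrial sideroflexin, read 5.89, 6.09 and 6.01 in gata2cko pools, against 6.17, 6.24 and 6.33 in control pools. Alms1, a protein of centrosomes and ciliary bases, read 7.27, 7.52 and 7.20 in gata2cko pools, against 7.13, 7.06 and 7.13 in control pools. Sfxn5 was lower and Alms1 higher with no overlap, by -0.25 ± 0.13 and 0.23 ± 0.13, and neither passed (limma adjusted p = 0.626 and 0.650).

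Among the remaining 4 of these, 3 encode mitochondrial proteins. Chchd4, the import receptor of the intermembrane space, read 8.91, 8.97 and 8.81 in gata2cko pools, against 8.45, 8.79 and 8.82 in control pools. Mthfd2, an enzyme of mitochondrial folate metabolism, read 9.90, 9.64 and 9.56 in gata2cko pools, against 9.48, 9.51 and 9.57 in control pools. The groups overlap in both genes, with differences of 0.21 ± 0.12 and 0.18 ± 0.11. Mrps25, a protein of the small mitochondrial ribosome subunit, read 8.17, 8.10 and 8.08 in gata2cko pools, against 7.67, 8.02 and 8.07 in control pools. Dysf, the membrane repair protein dysferlin, read 6.53, 6.44 and 6.58 in gata2cko pools, against 6.51, 6.41 and 5.95 in control pools. Mrps25 was higher without overlap by 0.20 ± 0.13 and Dysf overlapped at 0.23 ± 0.16, with control pool 7R the low value in Dysf.

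By role, most kept probes of the flanking genes differed little between groups. Of 95 member probes 6 differed by more than 0.5, where 285 of all 19936 kept probes did. These were the 3 called probes, the lower Tia1 probes and the Fbln2 probe. The 5 genes of the endoplasmic reticulum, Golgi and secretory pathway (12 kept probes) had a median difference of -0.05 and a range of -0.25 to 0.12. They include Mogs, which trims N-glycans, at -0.09 ± 0.13 and Tex261 at -0.01 ± 0.10 for its brightest probe. The 7 genes of endosomes, Rab GTPases and membrane traffic (13 kept probes) had a median of -0.01 and a range of -0.22 to 0.33, with the endocytic kinase Aak1 at -0.02 ± 0.13 and Rab43 at 0.09 ± 0.14. The 8 mitochondrial genes (12 kept probes) had a median of 0.06 and ranged from -0.25 to 0.21. In these 3 groups 0 probes passed.

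Of 8 genes of splicing, RNA binding and translation 7 had a kept probe, and their 11 probes had a median of 0.04. Apart from the lower Tia1 probes they ranged upward from -0.16, the value of Zfp638, to 0.25, that of Eefsec, with the spliceosome factor Isy1 at 0.15 ± 0.12 and the core splicing protein Snrpg at 0.13 ± 0.21. In the group of transcription, chromatin, DNA repair and nuclear pore genes, 10 of 11 had a kept probe and Mxd1 was the 1 of 17 probes that passed, beside a median of 0.07. The repair factor Xpc was at 0.07 ± 0.11, the nucleoporin Nup210 at -0.01 ± 0.10 and the deacetylase Hdac11 at 0.08 ± 0.12. The dimmer of the Smyd5 probes, a methyltransferase gene, differed by 0.45 ± 0.15 (unadjusted p = 0.00828) and the brighter by 0.11 ± 0.13, and neither passed.

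Of 6 genes of metabolism and taurine uptake 5 had a kept probe, and Gfpt1 was the 1 of 9 probes that passed. Nagk, the kinase that salvages N-acetylglucosamine into the pathway that Gfpt1 opens, was measured by 4 probes between -0.13 and 0.03. Slc6a6, the taurine transporter, was at 0.14 ± 0.13, and Cyp26b1, which breaks down retinoic acid, at -0.04 ± 0.13. The 6 genes of cytoskeleton, motors, chaperonin and cilia (8 kept probes) had a median of 0.04 and a range of -0.26 to 0.27, with 0 passing. The low end is the second probe of Add2, beta-adducin of the membrane skeleton, whose brightest probe was at 0.02 ± 0.11, and Dctn1, the large dynactin subunit, was at -0.10 ± 0.17. Of 9 genes of matrix, adhesion, scaffolds and signalling 7 had a kept probe, and Adamts9 was the 1 of 13 probes that passed, beside a median of -0.05. Here Lrig1, a brake on receptor tyrosine kinases, was at 0.13 ± 0.10, and the junction scaffold Magi1 ranged from -0.25 to 0.25 over 4 probes.

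**Figure D3:**
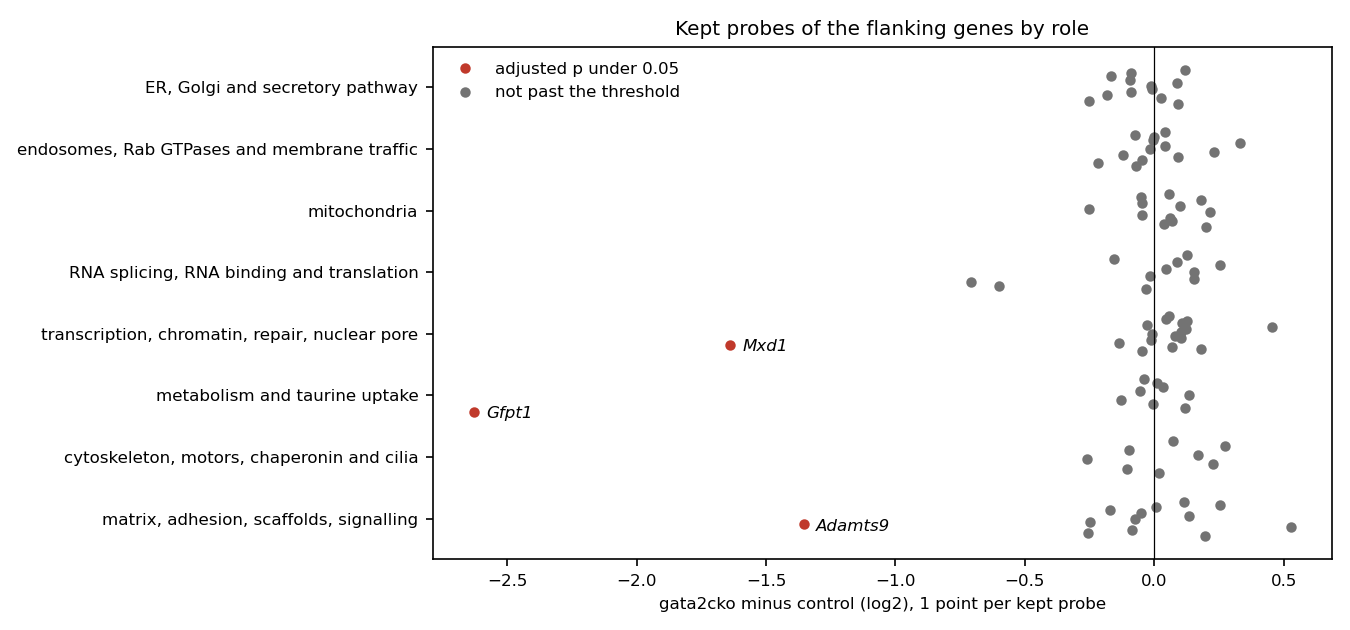
Difference of each kept probe of the flanking genes, gata2cko minus control in log2 (horizontal axis), grouped by role (rows), with probes at an adjusted p under 0.05 in red and the others in grey. The 3 red points are Gfpt1 at -2.63, Mxd1 at -1.64 and Adamts9 at -1.35, and the lowest grey points are the lower Tia1 probes at -0.71 and -0.60.

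The members not yet named gave these differences for their brightest kept probes, all with overlapping groups. Toward lower coordinates, Pole4, an accessory subunit of DNA polymerase epsilon, was at -0.14 ± 0.13 and Dguok, the mitochondrial deoxyguanosine kinase, at 0.07 ± 0.11. The chaperonin subunit Cct7 was at -0.11 ± 0.16 and Pcyox1, which degrades prenylcysteines, at 0.12 ± 0.10. Nearer to Gata2, Gmcl1 was at 0.06 ± 0.11, the iron-sulfur cluster protein Nfu1 at -0.05 ± 0.14 and the collagen-binding receptor Antxr1 at 0.19 ± 0.17. The second, dimmer Antxr1 probe pointed the other way, at -0.26 ± 0.15 without overlap. None of these probes passed, nor did those of Arhgap25, a GTPase-activating protein, at 0.07 ± 0.17, and Aplf, a DNA end-joining factor, at -0.01 ± 0.14. Toward higher coordinates, Abtb1 was at -0.02 ± 0.11, the sialomucin Podxl2 at 0.01 ± 0.13 and Chchd6, of the mitochondrial cristae complex, at -0.05 ± 0.12. The inner nuclear membrane protein Tmem43 was at 0.13 ± 0.11, the RNA-binding Lsm3 at 0.04 ± 0.19 and Prickle2, of planar cell polarity, at -0.07 ± 0.11. Slc25a26, the mitochondrial carrier of S-adenosylmethionine, lies near the far end of the listed genes, at 0.06 ± 0.14.

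Over the 25 flanking genes with at least 2 kept probes, the median spread between the lowest and the highest difference was 0.15. For comparison, the median absolute difference of the kept member probes was 0.098. The spread was 2.62 for Gfpt1, whose second kept probe lay near background, 0.79 for Tia1, 0.50 for Magi1 and 0.45 for Antxr1. The gene with the narrowest spread was Rab11fip5, a Rab11 effector, with 2 probes at -0.08 and -0.07. The flanking genes with no kept probe were Cnbp, Nr2c2, Mgll, Grip2 and Tgfa, which were not measured here.

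Across all 95 kept member probes the median difference was 0.01, the same to 2 decimals as the 0.01 over all 19936 kept probes, and 46 were negative against 49 positive. An absolute difference under 0.3 was measured for 87 of 95 member probes, 91.6%, where it was 90.4% over all kept probes. The groups did not overlap for 20 member probes, 10 lower and 10 higher in gata2cko, which is 21.1% where the share over all kept probes was 14.0%. At an unadjusted p under 0.05 there were 10 member probes, 7 lower and 3 higher, or 10.5%, beside 8.84% over all kept probes. These 10 were the 3 called probes, the lower Tia1 probes and 1 probe each of Add2, Copg1, Smyd5, Fbln2 and Anxa4. These shares describe the list and are no test of it.

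The called genes were not neighbours of each other in a block. Between Mxd1 and Gfpt1, 0.40 Mb apart, lie 5 measured genes, Snrnp27, Gmcl1, Anxa4, Aak1 and Nfu1, whose 9 kept probes ranged from -0.12 to 0.33 and did not pass. Between Gfpt1 and Gata2, 12 measured genes with 21 kept probes ranged from -0.43 to 0.19, and 0 passed. Between Gata2 and Adamts9, 4.58 Mb apart, 30 measured genes with 43 kept probes ranged from -0.26 to 0.53, and 0 passed. In steps of 2 Mb, the stretch from -2 to 0 Mb held 2 of the called probes among 43 and the stretch from 4 to 6 Mb held 1 among 7. In the other steps 0 passed. The median absolute difference was 0.093 in the stretch from -2 to 0 Mb and 0.173 in that from 4 to 6 Mb, beside 0.113 over all kept probes, and over the 10 steps with kept probes it ran between 0.061 from 10 to 12 Mb and 0.373 from 8 to 10 Mb, steps with 7 and 4 kept probes.

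The listed genes are part of the 185 named genes that start within 12 Mb of Gata2, Gata2 itself left out. The other 125 genes had 83 kept probes, of which 0 passed, with a median difference of 0.03 and a range of -0.59 to 0.45. Since the list was made with earlier results of these data known, listed and unlisted genes cannot be compared as a test. On the rest of chromosome 6, 1 of 656 kept probes passed, and it was lower in gata2cko. Elsewhere in the genome, 21 of 15951 named kept probes passed, 17 lower and 4 higher.

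**Figure D4:**
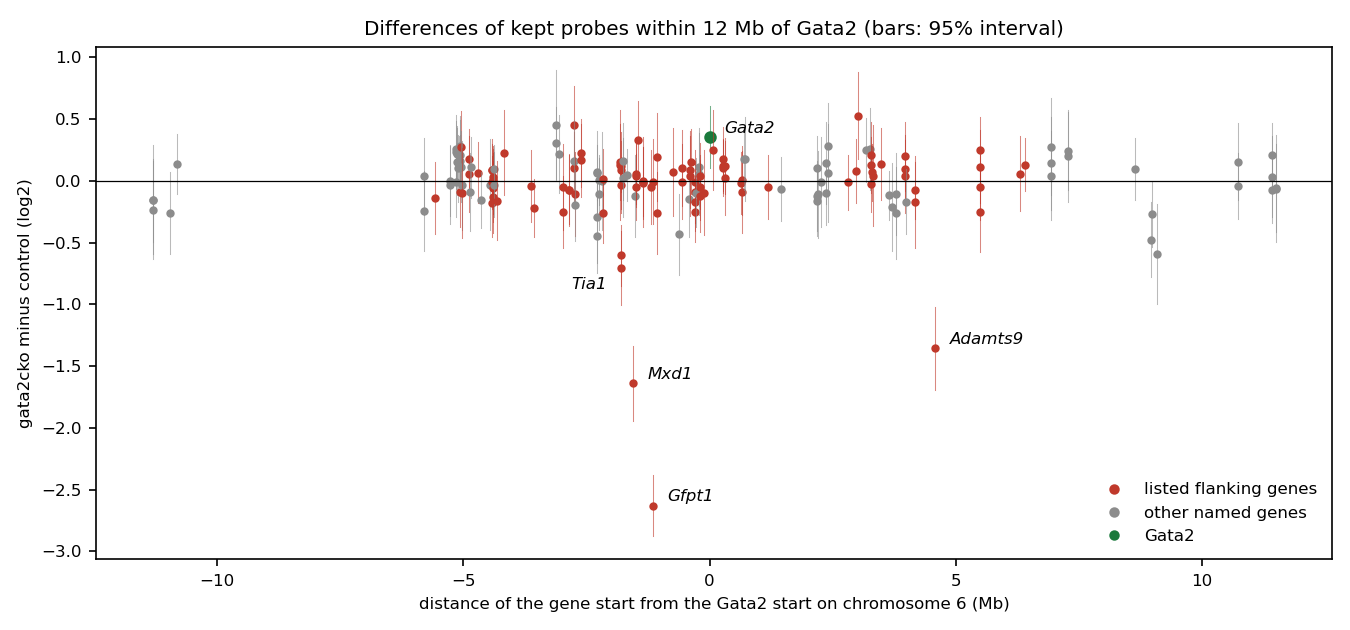
Difference of each kept probe within 12 Mb of Gata2, gata2cko minus control in log2 with its 95% interval (vertical axis), against the distance of the gene's start from that of Gata2 (horizontal axis, Mb; negative toward lower coordinates); listed genes are red, other named genes grey and Gata2 green. Gfpt1, Mxd1 and Adamts9 stand at -1.35 or below, and genes between them lie around 0.

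Partners of the called genes were read as their pathways. Each list includes the called gene itself, and the hexosamine list also includes the flanking gene Nagk. In the hexosamine pathway 10 genes were measured, each by its brightest kept probe, and Gfpt1 was the 1 that passed, while the median over the 10 was 0.08. Ogt, which attaches N-acetylglucosamine to proteins, differed by 0.13 ± 0.12, and Oga, which removes it, by -0.22 ± 0.15. Gfpt2, the paralog of Gfpt1, was dim, at 5.79 in gata2cko and 5.57 in control pools, with a difference of 0.22 ± 0.19. Gnpda1, which runs the step of Gfpt1 in reverse without glutamine, differed by 0.38 ± 0.12 (limma adjusted p = 0.381) with no overlap between groups.

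Of the MAX network 9 genes were measured, Mxd1 was the 1 that passed, and the median was -0.05, with 5 of the 9 differences negative. Myc, Mycn and Mlx had no kept probe and so were not measured. After Mxd1 the largest differences were those of Mnt at -0.37 ± 0.20 and Mga at -0.35 ± 0.24. Mycl, a MYC paralog, was bright at 11.75 in gata2cko and 11.73 in control pools, a difference of 0.02 ± 0.10. The Mxd1 paralogs Mxd4 and Mxd3 differed by -0.05 ± 0.10 and 0.12 ± 0.15, and Mlxip by 0.11 ± 0.17. In the list of related ADAMTS proteases and versican 4 genes were measured and Adamts9 was the 1 that passed. Versican, Vcan, a substrate of Adamts9, differed by -0.10 ± 0.16, and the dim proteases Adamts4 and Adamts15 by 0.04 ± 0.16 and 0.02 ± 0.17.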

How the data were processed

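RNA of 6 pools was read on Illumina Mouse WG-6 BeadChips. The authors deposited probe intensity on a linear scale without normalization, each intensity column followed by a detection p-value, per the file headers. Column names give the genotype and an array number found in no sample title, so columns served as replicates of their group. GenomeStudio 1.0 is named in the submitters' processing notes, without its role. A second table that the authors deposited holds normalized intensity by an unstated method; it served as an alternative.

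Intensities were normalized with limma 3.58.1 in R 4.3.3 (normexp, with background estimated through the detection p-values and an offset of 16, then quantile scaling and log2). The filter needed detection on 3 or more of the 6 arrays (p-value under 0.05) and kept 19936 of 45276 probes. The contrast was fitted on all kept probes, named or not, with lmFit and eBayes with an intensity trend, and p-values were adjusted over these probes by the Benjamini-Hochberg method. On simulated arrays of 19936 probes, 79 of 100 probes changed by 1 in log2 and 99 of 100 changed by 2 were recovered, beside 7 false calls. The simulation drew independent normal noise per probe and added the change after normalization and filtering. It therefore holds no noise shared between probes and no loss of signal at background, and does not cover dim probes such as those of Mxd1 and Adamts9. Symbols came from the platform annotation: 34881 probes had 1, 18 had several and 10377 had none, and 34803 matched the GRCm38.p6 gene table, used for gene order and distance. Probe sequences were not used here. The number of arrays limits the precision.

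The 60 members, the 11 gene lists and the tests were chosen with earlier results of these data known. Named in full were Gata2, members with a called probe, the 3 nearest members on each side, and the 10 other members with the smallest p-value of their brightest probe; Tia1, Gfpt2, the dimmer Smyd5 probe and role examples were chosen after their values were seen. Alternatives were the authors' normalized table with and without a replicate block, median scaling, uncorrected background, a larger offset (50), no or a stricter detection filter, no intensity trend, array weights, 1 probe per gene, a threshold of 0.1, and leaving out each array.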

Additional observations from a re-analysis of the deposited data

How the results depend on the processing

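Gfpt1, Mxd1 and Adamts9 passed in all 17 alternatives, with differences of -2.69 to -2.31, -1.69 to -0.81 and -1.42 to -0.67 and adjusted p-values up to 3.86e-06, 0.00124 and 0.0109. The count of member probes called, 3, was 5 with array weights, 5 at an adjusted p under 0.1 and 3 to 5 leaving out 1 array; the count within 12 Mb of Gata2, 3, was 5, 5 and 3 to 6 in the same alternatives, the sixth being Frmd4b without gata2cko pool 1R. The count over all probes, 29, was 19 without an intensity trend, 18 with 1 probe per gene adjusted over genes, and 14 to 103 leaving out 1 array. The median over member probes, 0.01, was 0.079 with median scaling, which moved the median of all probes to 0.074, and 0.00079 to 0.040 leaving out 1 array. Rab7 turned to 0.038 with median scaling and to 0.090 without gata2cko pool 1R (range -0.15 to 0.090 leaving out 1 array), and Rpn1 to 0.029 without control pool 5R (range -0.19 to 0.029); the cause was not tested. Of 352 values of single member probes 343 kept direction and side of the threshold, 6 passed newly and 3 turned sign. Those that passed newly were all of the lower Tia1 probes, with array weights, without gata2cko pool 1R and at the looser threshold of 0.1.

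The replicate block could be fitted on the authors' normalized table, where 17 probes were called with it and 30 without it, 3 of them member probes both times. Same-numbered samples did not deviate together (correlations of -0.04, -0.09 and -0.30), so the number was not taken as a pairing. Dim probes such as those of Mxd1 and Adamts9 have little room above background, which limits what their size can show.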

Other observations

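Genes within 12 Mb of Gata2 outside the list also had low p-values that did not pass, and they were picked out after their values were seen. Of the 4 kept probes that start 8 to 10 Mb from Gata2 toward higher coordinates, 3 were lower at an unadjusted limma p under 0.05. Over all 19936 kept probes 969 were. With so few probes in a step picked by its values, this count is no test of the stretch. Tmf1, a Golgi-associated coiled-coil protein, read 5.79, 5.90 and 5.59 in gata2cko pools, against 6.22, 6.31 and 6.18 in control pools. Uba3, the catalytic subunit of the NEDD8-activating enzyme, read 8.22, 8.29 and 8.01 in gata2cko pools, against 8.41, 8.32 and 8.60 in control pools. Both were lower in gata2cko without overlap, at -0.48 ± 0.14 (limma adjusted p = 0.370) and -0.27 ± 0.12 (limma adjusted p = 0.559). Frmd4b, a scaffold of epithelial junctions, read 8.23, 7.38 and 7.49 in gata2cko pools, against 8.42, 8.17 and 8.30 in control pools. Its gata2cko pool 1R lay within the control range, and its difference with all arrays was -0.59 ± 0.19 (limma adjusted p = 0.397).

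On the side of lower coordinates, Prokr1, a prokineticin receptor that starts 0.62 Mb from Gata2, read 5.32, 5.68 and 5.69 in gata2cko pools, against 6.12, 5.97 and 5.90 in control pools. Nat8f1, an acetyltransferase gene, read 6.12, 6.29 and 6.02 in gata2cko pools, against 6.47, 6.69 and 6.61 in control pools. Both were dim and lower without overlap, at -0.43 ± 0.15 and -0.45 ± 0.14 (limma adjusted p = 0.439 and 0.381).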
